A study of Mus musculus with 71 samples.

Results

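Of 155738 accessible chromatin intervals measured in mouse spinal cord progenitors made from embryonic stem cells, 356 (0.229%) were more open in pMN progenitors than in both p0-p1 and p2 progenitors on each of days 5, 7, 9 and 11 of WT differentiation. They were chosen by their measured values: the mean of log2(normalised reads + 5) over the WT pMN libraries of a day had to exceed the higher of the p0-p1 and p2 means by at least 0.6 on all 4 days, with the NFIAn fraction used on day 9. That excess is called the pMN difference here. The WT pMN differences are therefore a description of the choice, while the MUT libraries and the WT day 9 NFIAp libraries were not used in it.

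The pMN domain of the ventral spinal cord is marked by the transcription factor Olig2 and gives rise first to motor neurons and later to oligodendrocyte precursors. The neighbouring p2 domain produces V2 interneurons, and the more dorsal p0 and p1 domains produce V0 and V1 interneurons. These domains form in response to graded Sonic hedgehog signalling, and the accessibility of regulatory DNA differs between them. NFIA is a transcription factor known from the change of neural progenitors from neuron to glia production. Progenitors of every domain also change their accessible regions as they age, so a region that favours pMN at every age combines a domain difference with that course.

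Cells were treated with bFGF, then with the GSK3 inhibitor CHIR99021, then with retinoic acid and the Smoothened agonist SAG, and from day 5 with SAG alone. CaTS-ATAC measures accessibility with the Tn5 transposase in cells that were fixed, stained for proteins inside the cell and sorted, so each library holds 1 sorted population. The 71 libraries (38 WT, 33 MUT) form 26 groups that differ in population, day, genotype or NFIA fraction, 7 of 2 libraries and 19 of 3. WT p0-p1, p2 and pMN were NFIAn on days 5 and 7 and NFIAp on day 11. On day 9 WT p0-p1 was NFIAn, while WT p2 and pMN were each collected as NFIAn and as NFIAp. All MUT groups were NFIAn. NFIAn and NFIAp are read here as cells sorted without and with NFIA protein. Which gene is mutated in MUT is not named in the labels. Genotype and NFIA fraction therefore change together on day 11, as do day and fraction along the WT course. The labels do not say whether replicates were separate cultures, and p-values here reflect library-to-library spread alone, part of which may be technical.

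The table numbers its intervals and gives no positions or gene names. The members are therefore named by number, without annotation or sequence, and the sorted populations were not checked against marker genes here. Reads recovered per library ranged from 20034731 to 31315134. A day 7 pMN library of each genotype went against its label: over 5 neighbouring intervals that held 148 to 519 reads in the other WT libraries and 0 to 1 in the other MUT libraries, the library labelled WT replicate 3 had 0 and the library labelled MUT replicate 3 had 213. Both were left out of every group mean and test below, though not of an interval's mean level over all libraries. WT day 9 p2 NFIAp replicate 2 also stood apart and was kept, and results that rest on it are given with and without it.

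Seen library by library, the chosen intervals set pMN apart in MUT on every day. The median over the 356 intervals lay between 77.9 and 106.8 normalised reads in all MUT pMN libraries, and at or below 46.3 in all MUT p0-p1 and p2 libraries. In MUT p0-p1 the 3 libraries of day 5 gave 16.7 to 17.9 and the 3 of day 11 gave 31.8 to 42.8. In MUT p2 they gave 25.2 to 28.4 on day 5 and 39.0 to 46.3 on day 11. In MUT pMN they gave 79.4 to 84.7 on day 5 and 77.9 to 106.8 on day 11, so these pMN libraries overlapped between the days while those of the other populations did not. WT gave the same order on day 5: the p0-p1 libraries had 16.9 and 17.0, the p2 libraries 25.5 and 26.1, and the pMN libraries 73.8 and 86.3. On day 11 replicate 1 was the highest of its 3 libraries in all 6 groups, and it also had the highest median over all intervals in each. Its part in the day 11 values is given below where it moves a count.

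**Figure D1:**
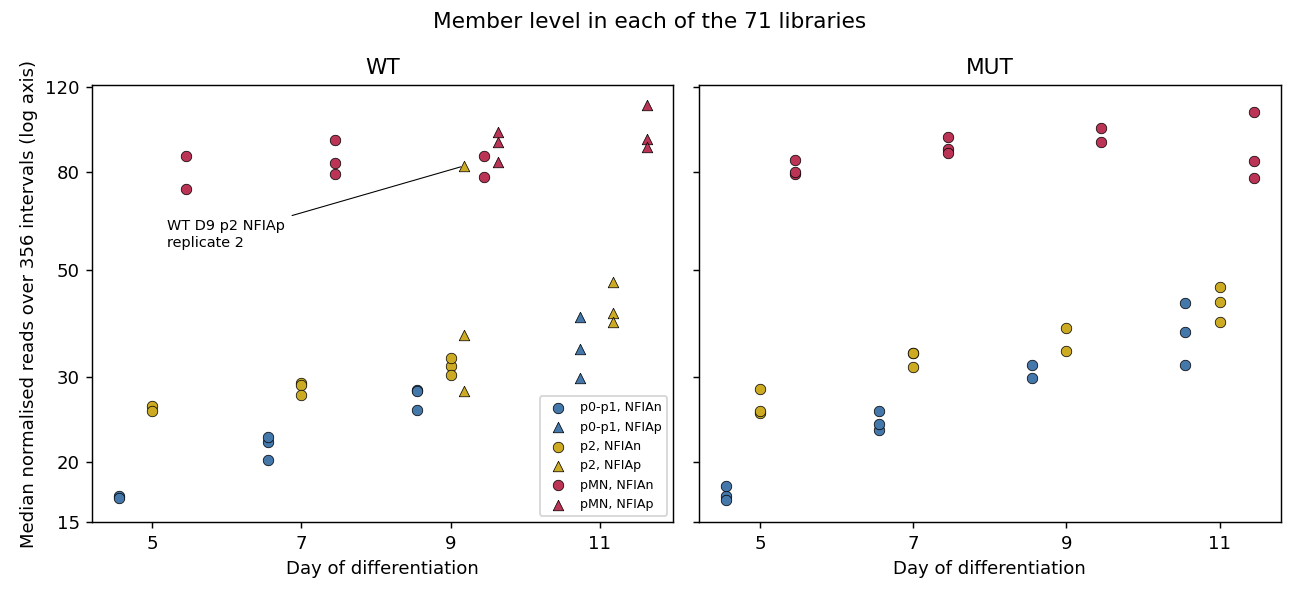
Median normalised reads over the 356 intervals in each of the 71 libraries (log axis) against day of differentiation, for WT (left) and MUT (right), with colour for the population and shape for the NFIA fraction; both day 7 libraries that went against their labels are drawn. MUT pMN libraries sit between 77.9 and 106.8 and MUT p0-p1 and p2 libraries at or below 46.3; WT day 9 p2 NFIAp replicate 2, at 82.4, sits among the pMN libraries.

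Few of the intervals that set WT pMN apart on 1 day did so on the others. A WT pMN difference of at least 0.6 was found in 16718 intervals on day 5, 8236 on day 7, 4890 on day 9 and 5487 on day 11. It was found on exactly 1 day in 19947 intervals, on 2 days in 4850 and on 3 days in 1420. Among these, 15545 intervals met it on day 5 but not on day 11, and 4314 met it on day 11 but not on day 5. For the 356 intervals that met it on all 4 days, the median of their mean normalised reads over all 71 libraries was 59.4. It was 31.8 for all intervals, and counting error alone at 59.4 reads is 13.0%. That mean includes the WT pMN libraries in which the rule asked for an excess. Outside pMN the members were not higher throughout. On day 5 their group medians in MUT p0-p1 and p2 were 16.9 and 26.5, against 28.4 and 28.6 for all intervals. On day 11 they were 37.8 and 43.7, against 31.8 and 31.6. The members' median WT pMN difference was 1.15 on day 5, 1.17 on day 7, 1.06 on day 9 and 0.90 on day 11 (log2).

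The threshold has no gap around it. The 3 members nearest to it, Interval_88326, Interval_150981 and Interval_67592, had smallest WT pMN differences of 0.60002, 0.60015 and 0.60170. The 3 intervals just outside, Interval_144317, Interval_90701 and Interval_36064, had 0.59940, 0.59882 and 0.59866. Among the members the smallest of the 4 daily differences reached 1.97, with a median of 0.74.

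The pMN difference was present in most of the chosen intervals in MUT, whose libraries had no part in the choice. With limma, an interval was called above both when pMN exceeded p0-p1 and p2 by at least 0.6 on the log2 scale with a Benjamini-Hochberg adjusted p under 0.05 in each of the 2 comparisons. On day 5, 295 of the 356 were called above both, where 9.3% of all tested intervals were. On day 7, 277 were called, against 3.13% of all. On day 9, 213 were called, against 1.38%, and on day 11, 194 were called, against 1.23%. The share of members called was thus well above the background on each day. It was 82.9% on day 5 and 54.5% on day 11.

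The counts after day 5 depended on single libraries. Without MUT day 7 pMN replicate 1 the day 7 count was 182, with 1 pMN library left that is assumed to vary like the other groups. On day 9, where each group had 2 libraries, it was 104 without p2 replicate 2 and 111 without pMN replicate 1, under the same assumption. On day 11 it was 112 without pMN replicate 1. A least difference of 1 gave 108 on day 11.

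The same members were mostly called on several days. In MUT 100 of the 356 were called on all 4 days, 113 on 3, 103 on 2, 34 on 1 and 6 on none. Of all tested intervals, 0.118% were called on all 4 days, 0.51% on 3, 1.9% on 2, 9.24% on 1 and 88.2% on none. Without a test, the MUT pMN difference was at least 0.6 in 317 members on day 5, 332 on day 7, 309 on day 9 and 242 on day 11, and in 189 on all 4 days. The same held for 11.1%, 5.59%, 3.92% and 2.70% of all intervals, and for 475 intervals on all 4 days.

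The separation of single libraries gave a similar picture. Every MUT pMN library lay above every MUT p0-p1 and p2 library of its day in 327 members on day 5 (14.3% of all intervals), 335 on day 7 (11.9%) and 334 on day 9 (13.3%). On day 11 this held for 255 members (7.14%). It held on all 4 days for 216 members, against 0.699% of all intervals. Day 9, with groups of 2, and day 7, with 2 pMN libraries, separate more easily than the other days.

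Median MUT pMN differences were 1.19, 1.17, 1.06 and 0.81 on days 5, 7, 9 and 11, where the medians over all intervals were -0.15, -0.11, -0.12 and -0.11. Across the members, WT and MUT differences had a Pearson r of 0.877 on day 5, 0.825 on day 7, 0.795 on day 9 and 0.467 on day 11. These correlations are across intervals, which are not independent replicates. Within MUT, the day 5 and day 11 differences of the members had an r of -0.026. The rule set a floor on the WT difference of both days, which bears on that r, so nothing is read from it. For comparison, intervals that met the WT rule on day 5 but not on day 11 had a median MUT difference of 1.00 on day 5 and -0.36 on day 11. Those that met it on day 11 but not on day 5 had -0.04 and 0.40, and their median level was 21.0 reads. The members' medians of 1.19 and 0.81 were above both sets on both days, a comparison that was not tested.

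**Figure D2:**
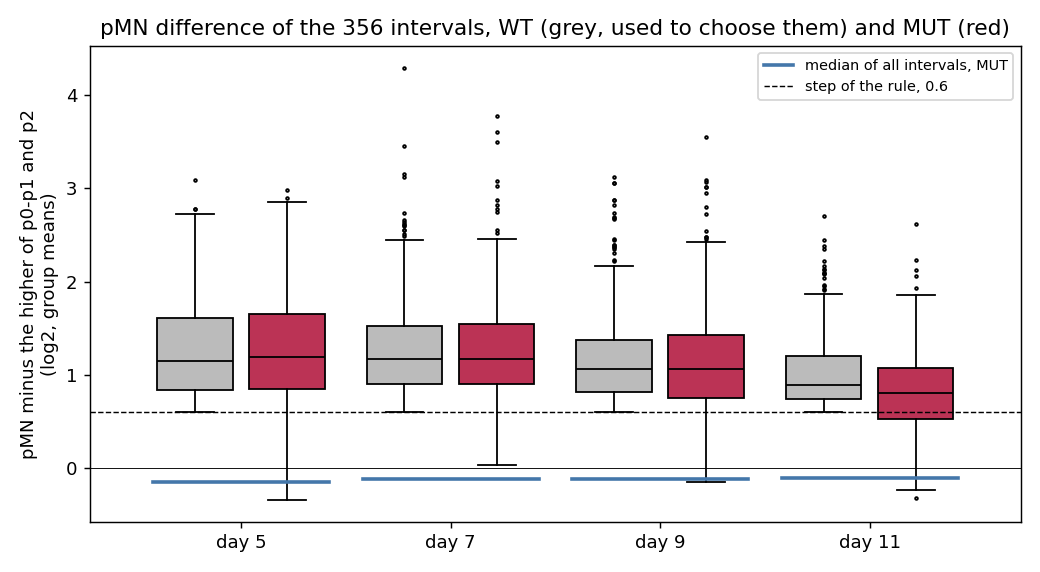
Distribution over the 356 intervals of the pMN difference (pMN group mean minus the higher of the p0-p1 and p2 means, log2) on each day, in WT (grey, used to choose the intervals, hence all at or above 0.6) and MUT (red). Boxes span the quartiles around the median, whiskers reach the farthest interval within 1.5 box lengths, points lie beyond, and blue lines mark the median over all intervals in MUT; the MUT medians run from 1.19 on day 5 to 0.81 on day 11.

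The 6 intervals with the largest smallest WT difference were all called above both in MUT on all 4 days. Values here are normalised reads in MUT libraries, and each p is the larger of the adjusted limma p-values against p0-p1 and p2.

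Interval_10132 was the strongest and opened over time in all populations. On day 5 its MUT pMN libraries had 50.5, 36.8 and 41.3 reads, its p2 libraries 11.8, 6.82 and 7.29, and its p0-p1 libraries 2.27, 2.94 and 4.21. On day 11 pMN had 431.5, 345.8 and 422.6, p2 had 121.7, 88.8 and 111.9, and p0-p1 had 25.7, 34.02 and 31.4. The groups did not overlap on either day, in the order pMN, p2, p0-p1. Its MUT pMN difference was 1.82 (SE 0.41, adjusted p = 0.000623) on day 5 and 1.85 (SE 0.41, adjusted p = 0.00115) on day 11, and it was largest on day 7, at 3.501. That day 7 value rested on p2 replicate 3, at 3.20 reads where the other p2 libraries had 43.4 and 26.8. Without it the day 7 difference was 2.75, below the 2.80 of day 9.

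Interval_36530 kept its difference to the higher of the other populations while p0-p1 opened. Its gap to p0-p1 alone narrowed from 3.57 on day 5 to 1.72 on day 11, a change called by limma. Its MUT pMN libraries had 73.0, 95.1 and 107.9 reads on day 5 and 64.3, 66.6 and 76.5 on day 11. Its MUT p0-p1 libraries had 2.27, 3.92 and 3.16 on day 5 and 12.8, 14.3 and 27.8 on day 11, which overlapped the p2 values of 13.1, 11.5 and 22.9. The pMN libraries stayed apart from both, with a difference of 1.89 (SE 0.36, adjusted p = 4.94e-05) on day 5 and 1.72 (SE 0.36, adjusted p = 0.000163) on day 11.

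Interval_99490 had MUT pMN reads of 355.5, 483.1 and 508.7 on day 5 and 945.8, 780.7 and 758.5 on day 11. Its p2 libraries had 112.8, 145.5 and 133.1 on day 5 and 334.9, 307.4 and 300.0 on day 11. The pMN difference was 1.74 (SE 0.25, adjusted p = 3.79e-07) on day 5 and 1.38 (SE 0.25, adjusted p = 9.97e-05) on day 11. Here pMN and p2 both opened and pMN stayed ahead.

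Interval_85566 was at its lowest in MUT pMN on day 9, at 57.2 and 57.9 reads. It had 188.1, 196.7 and 195.2 on day 5 and 126.4, 84.2 and 83.0 on day 11. The other populations were lower in every library of each day, and the day 9 difference was 1.59 (SE 0.39, adjusted p = 0.00287). That day 9 call was lost without p2 replicate 2, with the difference still at 1.59, since p0-p1 was the higher of the other groups.

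Interval_141129 and Interval_18207 moved in different ways. In MUT pMN, Interval_141129 had 68.3, 97.3 and 107.1 reads on day 5, 155.1 and 193.0 on day 7, and 83.9, 80.3 and 75.6 on day 11. Its pMN difference was 1.90 on day 5, 3.08 on day 7 and 1.70 on day 11. Interval_18207 closed in MUT pMN from 561.4, 635.5 and 638.1 reads on day 5 to 256.1, 222.4 and 258.4 on day 11. Its pMN difference was 2.10 on day 5 and 1.43 on day 11, and no pMN library overlapped a p2 or p0-p1 library on either day.

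The 2 members with the highest level, Interval_80714 and Interval_5525, were open in all populations. Interval_80714 had 1017, 1106 and 1175 reads in MUT pMN on day 5 against 590.8, 664.0 and 665.5 in p2. On day 11 it had 1408, 1210 and 1231 against 922.2, 796.3 and 740.3, and the difference of 0.65 (SE 0.16, adjusted p = 0.00454) was lost with either other scaling of the libraries and without pMN replicate 1 or p2 replicate 3. Interval_5525 had 1224, 1198 and 1173 reads in MUT pMN on day 5, against 770.1, 695.9 and 805.0 in p2. Its difference was 0.66 (SE 0.15, adjusted p = 0.000711) on day 5 and 0.73 (SE 0.15, adjusted p = 0.000117) on day 11. For both, the pMN libraries were high and the others moderate, without overlap.

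**Figure D3:**
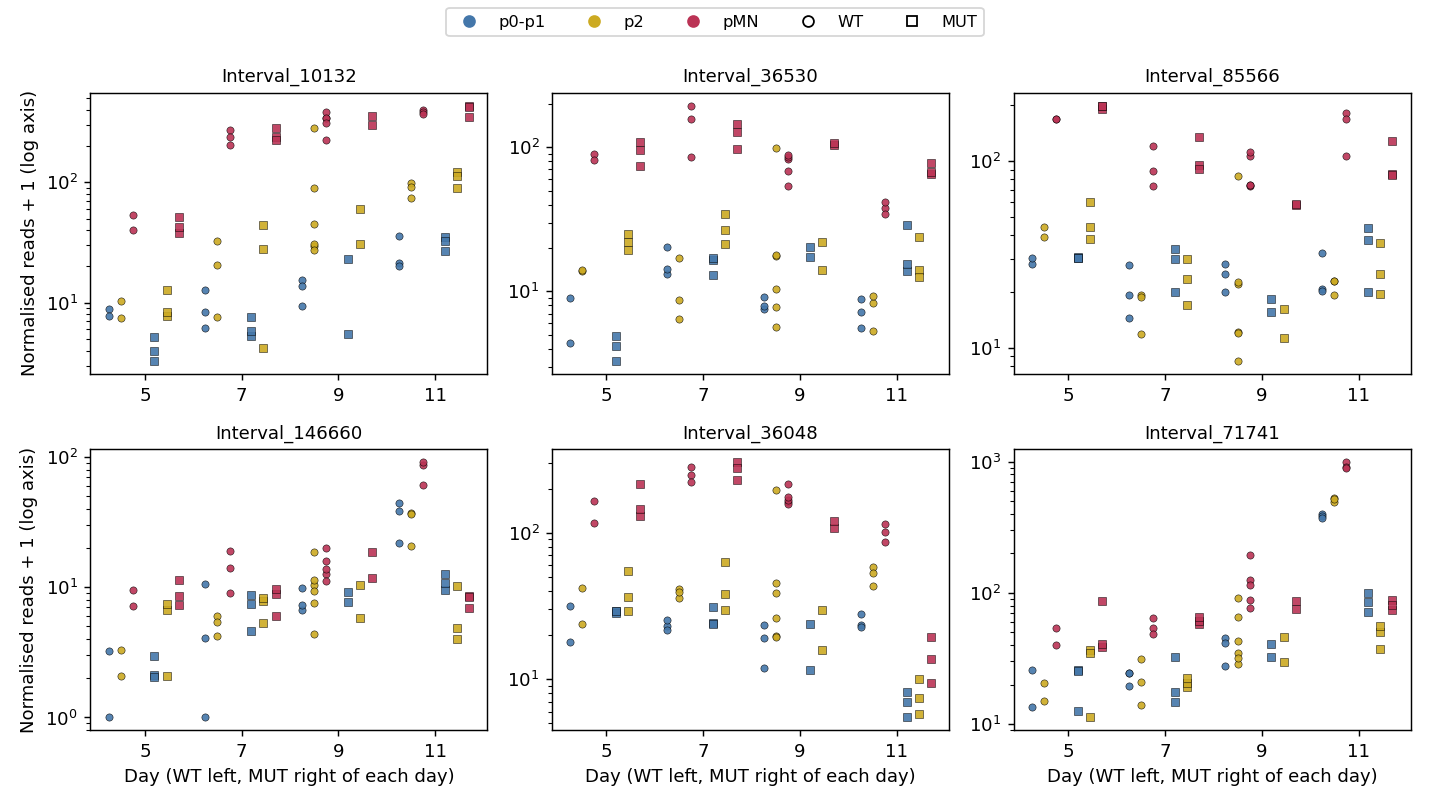
Normalised reads + 1 (log axis) in every library of 6 of the chosen intervals by day, with colour for the population, circles for WT (left of each day, both NFIA fractions of day 9) and squares for MUT (right of each day); the 2 day 7 pMN libraries that went against their labels are drawn. Interval_10132, Interval_36530 and Interval_85566 keep pMN above the others in MUT on all 4 days, while in Interval_146660, Interval_36048 and Interval_71741 MUT pMN lies near the other populations on day 11.

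WT day 9 NFIAp cells gave a second set of libraries outside the choice, for pMN against p2 alone. The median over the members was 92.6, 96.7 and 84.1 reads in the 3 pMN libraries. In the p2 libraries it was 36.6, 82.4 and 28.1, so replicate 2 stood near pMN and the other p2 libraries stood near the NFIAn p2 libraries, which had 30.3 to 32.9. The median pMN minus p2 difference was 0.91 with all libraries and 1.29 without p2 replicate 2. Over all intervals it was -0.01 and -0.02.

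With all libraries, limma called 182 of the 356 members higher in pMN (0.831% of all intervals), and without p2 replicate 2 it called 286 (2.77%). Every pMN library lay above every p2 library in 138 members (5.22%) with all libraries and in 326 (14.3%) without that one. The count with all libraries turned on several others too: it was 115 without p2 replicate 1, 14 without p2 replicate 3, 98 without pMN replicate 1 and 114 without pMN replicate 2. A fit of only these 2 groups called 0, edgeR called 152, and 305 members had an unadjusted limma p under 0.05, as did 12.6% of all intervals. What sets p2 replicate 2 apart was not tested.

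Interval_58546 and Interval_38533 had the largest NFIAp differences and are named for them. Interval_58546 had 157.0, 172.3 and 260.1 reads in the pMN NFIAp libraries and 15.97, 125.4 and 12.2 in p2. The difference was 2.45 (SE 0.35, adjusted p = 3.68e-05), and 3.37 without p2 replicate 2. Interval_38533 had 393.5, 250.5 and 194.8 in pMN and 86.4, 123.4 and 15.0 in p2, a difference of 2.15 (SE 0.30, adjusted p = 2.02e-05). Neither overlapped between the groups, even with p2 replicate 2, and both calls were lost in the fit of only these 2 groups.

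Interval_9427 and Interval_146660 had the smallest NFIAp differences. Interval_9427 had 77.5, 52.9 and 39.8 reads in pMN and 75.2, 80.9 and 35.6 in p2, which overlap (difference -0.13, SE 0.28, adjusted p = 0.918). Interval_146660 had 11.6, 12.7 and 10.2 in pMN and 10.3, 17.6 and 8.43 in p2, which also overlap (difference -0.02, SE 0.29, adjusted p = 0.99). Without p2 replicate 2 these differences were 0.07 and 0.20.

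Members chosen for a WT pMN difference on all days did not hold a fixed level in MUT pMN. The counts that follow cover all 356 members, of which 242 had a MUT pMN difference of at least 0.6 on day 11. From day 5 to day 11 of MUT pMN, 134 members rose and 112 fell, by limma with a least difference of 0.6. Of all intervals, 28.3% rose and 28.0% fell. The members' shares, 37.6% and 31.5%, were not far above that background. Their median change was 0.16, with quartiles of -0.84 and 1.07. All MUT libraries in this comparison were NFIAn, so it holds the fraction fixed.

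The other populations gained more than pMN did. In MUT p0-p1, 197 members rose and 35 fell, where 32.7% and 25.7% of all intervals did. In MUT p2, 163 rose and 61 fell, where 31.0% and 26.3% did. Over the members the median change in p0-p1 was 0.84, that in p2 0.49 and that in pMN 0.16. Over all intervals these medians were 0.05, 0.02 and 0.00. The p0-p1 group median of the members was 16.9 normalised reads on day 5 and 37.8 on day 11. The p2 median was 26.5 and then 43.7, and the pMN median 84.6 and then 91.6. The p0-p1 and p2 comparisons over time were added after the values were seen.

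Of the 134 members that rose in pMN, 116 were also risers in p0-p1, 118 in p2 and 108 in all 3 populations. These shares were 86.6%, 88.1% and 80.6%, where of all intervals that rose in pMN 72.1%, 82.1% and 67.8% did, so shared rises are common in the whole table. Of the 112 that fell in pMN, 33 were also fallers in p0-p1, 54 in p2 and 29 in all 3, while p0-p1 rose in 26. These shares were 29.5%, 48.2%, 25.9% and 23.2%, where of all intervals that fell in pMN they were 64.5%, 74.0%, 61.6% and 10.6%. Of the 110 that did neither in pMN, 55 (50.0%) rose in p0-p1, against 21.4% of all such intervals. None of these overlaps was tested. On day 11, 80 of the risers in pMN (59.7%) and 52 of the fallers (46.4%) were called above both. Of all intervals that rose or fell in pMN, 2.87% and 0.473% were. Across members, the MUT pMN change had a Pearson r of 0.87 with the p2 change and 0.678 with the p0-p1 change. It had an r of 0.847 with the WT pMN change.

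**Figure D4:**
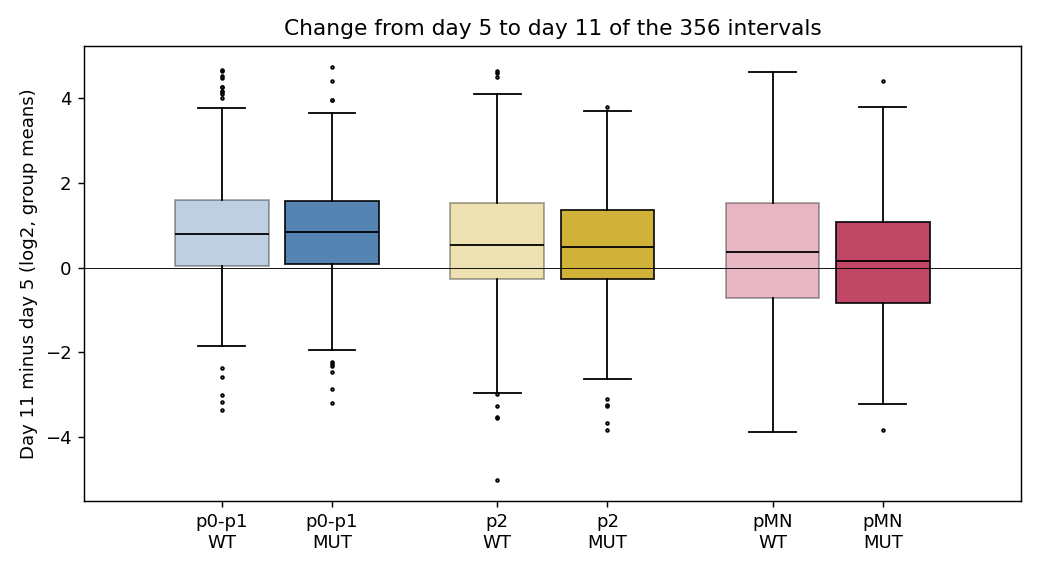
Change from day 5 to day 11 (difference of group means, log2) of the 356 intervals in p0-p1, p2 and pMN of WT (pale, fraction NFIAn to NFIAp) and MUT (full colour, NFIAn throughout). Boxes span the quartiles around the median, whiskers reach the farthest interval within 1.5 box lengths and points lie beyond; the MUT medians are 0.84, 0.49 and 0.16.

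The gap between pMN and p0-p1 narrowed more often than it widened. By the limma test of the change itself, also added after the values were seen, MUT pMN minus p0-p1 was smaller on day 11 than on day 5 in 140 members and larger in 17. Of all intervals, it was smaller in 17.9% and larger in 11.1%. Among the 140, p0-p1 rose in 91 and pMN fell in 73, and both could hold for 1 interval. Those shares, 65.0% and 52.1%, were near the 64.2% and 50.3% of all intervals whose gap narrowed. The count of 17 ranged from 9 to 33 over the other settings. Against p2 the gap was smaller in 55 members and larger in 4, where 9.27% and 1.93% of all intervals were. Without MUT day 11 pMN replicate 1 the gap to p0-p1 was larger in 8, and the count of 55 became 36 without MUT day 5 pMN replicate 1 or MUT day 11 p2 replicate 1. Called above both on day 5, 158 members were also called on day 11 and 137 were not. The 158 were 53.6% of the members called on day 5, where of all intervals called on day 5 the share was 2.87%.

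Interval_112645 and Interval_90287 rose most in MUT pMN and are named for it. Interval_112645 had 4.68, 1.08 and 0.794 reads on day 5, when p0-p1 had 4.54, 3.92 and 3.16 for a pMN difference of -0.34. On day 11 it had 175.4, 134.2 and 121.3, a rise of 4.39 (SE 0.29, adjusted p = 9.73e-21), with p2 at 65.4, 61.1 and 49.5. Interval_90287 had 56.1, 53.0 and 65.1 on day 5 and 1061, 836.5 and 711.8 on day 11, a rise of 3.78 (SE 0.26, adjusted p = 1.47e-19). It rose by 3.68 in p2 and 3.44 in p0-p1 as well.

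Interval_15725 and Interval_36048 fell most. Interval_15725 had 423.8, 411.8 and 362.7 reads in MUT pMN on day 5 and 26.2, 21.6 and 22.4 on day 11, and fell by 3.83 (SE 0.24, adjusted p = 3.18e-21). On day 11 its p0-p1 libraries, at 31.7, 25.97 and 27.8, were mostly above those of pMN. Interval_36048 had 213.3, 128.6 and 145.2 on day 5 and 18.5, 12.7 and 8.40 on day 11, and fell by 3.21 (SE 0.30, adjusted p = 2.76e-14). In WT pMN it had 163.0 and 115.9 on day 5 and 113.2, 100.6 and 85.4 on day 11. The rule asked for a pMN excess in these WT day 11 libraries. They were NFIAp and the MUT ones NFIAn, so genotype and fraction cannot be told apart. The interval also changed by -1.88 in MUT p2 and -1.61 in MUT p0-p1, where the WT changes were 0.63 and 0.03.

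Outside pMN, most of the chosen intervals had a higher level in p2 than in p0-p1. The rule used the higher of the 2 populations and not their order. The p2 group mean was the higher in 300 of the 356 members on day 5, 281 on day 7, 269 on day 9 and 219 on day 11 of MUT. Over all intervals it was the higher in 48.8%, 47.3%, 51.9% and 49.6%. In WT it was the higher in 295, 286, 229 and 237 members, and in 47.4%, 48.1%, 49.6% and 53.5% of all intervals. The median MUT p2 minus p0-p1 difference went from 0.47 on day 5 to 0.14 on day 11, against -0.01 and -0.00 over all intervals. It was not particular to the members. Intervals that met the WT rule on day 5 but not on day 11 had medians of 0.42 and -0.01 on these days. Those that met it on day 11 but not on day 5 had 0.01 and 0.13.

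By limma, p2 was above p0-p1 in 87 members on day 5 of MUT (5.27% of all intervals) and below in 0 (1.95%). At an unadjusted p under 0.05, 165 members differed in either direction, as did 19.0% of all intervals, and edgeR also called 0 below. On day 11, p2 was above in 38 members (6.25%) and below in 9 (7.03%). Above on both days were 7 members (1.97%). The share over all intervals was not counted, so nothing is read from that number. By the test of the change itself, added after the values were seen, MUT p2 minus p0-p1 was smaller on day 11 than on day 5 in 45 members (5.83% of all intervals) and larger in 3 (2.39%). The count of 3 became 1 without p0-p1 replicate 3 or p2 replicate 1 of day 5 or p0-p1 replicate 1 of day 11, and with the replicate block within genotype and day the counts were 78 and 16. The count of 38 became 21 without p2 replicate 1, and the count of 9 became 4 without p0-p1 replicate 1. Without p0-p1 replicate 2 or p2 replicate 3 of day 5, 2 members were called below on that day.

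Interval_155018 had the largest MUT p2 minus p0-p1 difference on day 11. It had 116.7, 117.4 and 104.6 reads in p2 and 29.1, 21.5 and 48.4 in p0-p1, a difference of 1.69 (SE 0.25, adjusted p = 1.02e-06), with pMN at 372.7, 330.1 and 299.5. The 3 populations thus stood in 3 separate steps. Interval_10132, described above, came next at 1.67 (SE 0.41, adjusted p = 0.00222).

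Interval_37179 and Interval_67449 had the reverse order. Interval_37179 had 65.0, 51.9 and 26.9 reads in MUT p0-p1 on day 11 against 21.1, 23.9 and 13.8 in p2, a p2 minus p0-p1 difference of -1.06 (SE 0.32, adjusted p = 0.0164). Interval_67449 had 65.0, 35.8 and 25.98 against 23.1, 20.1 and 11.9, a difference of -0.96 (SE 0.27, adjusted p = 0.00811). In both, p0-p1 replicate 1 was the highest, and neither was called without it. The Interval_37179 call was also lost without p0-p1 replicate 2 or p2 replicate 3 (-0.97 and -0.87), and that of Interval_67449 without p2 replicate 3 (-0.75).

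Day 11 pMN levels of MUT and WT are given side by side as a description, since the rule picked members that were high in these WT libraries, which by itself lowers MUT against WT. MUT NFIAn is set here against WT NFIAp, so genotype and fraction cannot be told apart. Past limma's threshold, 85 members were lower in MUT (12.0% of all intervals) and 41 higher (11.5%), and nothing is read from the lean. The median difference was -0.18, against 0.05 over all intervals. On days 5, 7 and 9, with NFIAn in both genotypes, it was 0.08, 0.12 and 0.20. Without MUT pMN replicate 1 the count of higher members was 26.

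Interval_71741 and Interval_134567 were lowest in MUT against WT. Interval_71741 had 87.2, 72.5 and 79.3 reads in MUT pMN on day 11 and 989.0, 907.3 and 896.1 in WT pMN, a difference of -3.47. The other WT populations were high too, at 530.8, 493.8 and 515.8 in p2 and 398.9, 381.7 and 368.5 in p0-p1, where MUT p2 had 49.3, 36.3 and 55.0. In WT pMN on day 9 it had 87.9 and 75.8 in the NFIAn libraries and 192.9, 124.7 and 113.2 in the NFIAp libraries, which did not overlap. Interval_134567 had 21.8, 17.6 and 21.5 in MUT pMN and 214.2, 200.1 and 191.3 in WT pMN, a difference of -3.03.

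Interval_95095 and Interval_82857 were highest in MUT against WT. Interval_95095 had 278.9, 207.7 and 234.2 reads in MUT pMN on day 11 and 73.6, 86.1 and 85.4 in WT pMN, a difference of 1.49. Interval_82857 had 200.5, 183.2 and 172.6 against 47.2, 70.5 and 77.1, a difference of 1.47. In both, pMN remained above p2 in MUT: Interval_82857 had 25.1, 22.9 and 30.3 in MUT p2 on that day.

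The members were spread through the interval numbers from 483 to 155018, with a median gap of 309 between neighbours. There were 4 pairs with consecutive numbers, and 7 gaps were of at most 5 numbers. Whether numbers follow the genome is not stated in the sources used here. In the first pair, Interval_12552 had 71.1, 53.0 and 60.3 reads in MUT pMN on day 5 and 83.9, 70.5 and 85.8 on day 11. Interval_12553 had 160.9, 144.8 and 123.0 on day 5 and 127.5, 75.4 and 64.4 on day 11. Their pMN differences on day 11 were 1.00 (SE 0.26, adjusted p = 0.0069) and 0.86 (SE 0.28, adjusted p = 0.0423). The second was lost without any of 5 day 11 libraries: p0-p1 replicate 3 (0.49), p2 replicate 2 (0.89) or 3 (0.58), and pMN replicate 1 (0.59) or 2 (0.95). The neighbours also differed across genotypes: on day 11 WT pMN had 43.4, 58.1 and 65.0 reads in Interval_12552 and 365.2, 291.4 and 301.8 in Interval_12553.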

How the data were processed

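Libraries were grouped by genotype, day, population and NFIA fraction from their labels. The authors deposited 1 table of signal values, read counts per interval divided by a size factor per library, on build mm10 per the submitters' processing notes. The aligner, the peak caller and the counter are not given in the sources used here. Dividing each column by its step gave whole reads for 100% of values (tolerance 0.01). In 2 libraries the step lay near 1: 1.0057 in MUT day 11 p2 replicate 1 and 0.997 in WT day 9 pMN NFIAn replicate 2. Their values were still not whole before the division, such as 334.9 in Interval_99490 for the first and 222.4 in Interval_10132 for the second.

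The log2(value + 5) values of 69 libraries were fitted with limma 3.58.1 as 26 group means (residual df 43, mean-variance trend). Tests covered the 155734 of 155738 intervals that reached a value of 10 in 2 or more libraries, all members included, with Benjamini-Hochberg adjustment over all of them. Fold changes on this scale understate those of low intervals. Calls needed an adjusted p under 0.05 and 0.6 log2. As an alternative, edgeR 4.0.16 was run on the whole reads recovered from the deposited table.

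Members, lists and tests were chosen with earlier results of these data known. Intervals were named as the extremes of the WT difference, level, change over time, NFIAp difference, p2 minus p0-p1 difference and genotype difference, the members nearest the threshold, and the first run of consecutive numbers. Replicate numbers paired libraries where every one of 3 pairs' deviations correlated above 0.1: among MUT day 5 populations (0.122 to 0.292), MUT day 7 p2 and p0-p1 (0.18 to 0.327), and WT day 9 NFIAp pMN and p2 (0.159 to 0.426).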

Additional observations from a re-analysis of the deposited data

Results flagged for a closer look

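The pMN difference of the chosen intervals in MUT differed between days 5 and 11 by a test added after the values were seen, the limma test of the change of a difference. Against p0-p1 it was smaller on day 11 in 140 of the 356 members (17.9% of all intervals) and larger in 17 (11.1%). Against p2 it was smaller in 55 (9.27%) and larger in 4 (1.93%). The p2 minus p0-p1 difference, by the same kind of added test, was smaller on day 11 in 45 (5.83%) and larger in 3 (2.39%).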

How the results depend on the processing

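The number of members depended on the pseudocount and the step: 552 with a pseudocount of 1, 147 with 20, and 554, 130 and 44 with steps of 0.5, 0.8 and 1. Scaling of the libraries moved it too. Equal library totals gave 280, of which 275 were among the 356, and quantile normalization gave 378, of which 313 were. It ranged from 327 to 382 with each WT library left out.

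With each library left out, counts above both in MUT ranged from 266 to 289 on day 5, 182 to 271 on day 7, 104 to 186 on day 9 and 112 to 190 on day 11, and those for WT NFIAp from 14 to 286. Members rising in MUT pMN ranged from 119 to 135 and falling from 100 to 113. Counts of p2 above and below p0-p1 ranged from 60 to 72 and 0 to 2 on day 5, and from 21 to 40 and 4 to 9 on day 11. Counts lower and higher in MUT than WT pMN ranged from 66 to 91 and 26 to 41.

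A least difference of 1 gave 108 above both on day 11, 45 p2 above p0-p1 on day 5, 17 above and 1 below on day 11, and 55 lower and 20 higher in MUT than WT pMN. MUT p2 below p0-p1 on day 5 was 2 with a pseudocount of 1 or quantile normalization and 1 in a fit of only the groups compared, which gave 0 for WT NFIAp. On day 11 it was 14 with quantile normalization and 14 with equal library totals.

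The count of members whose gap between pMN and p0-p1 widened, 17, ranged from 9 with a pseudocount of 1 to 33 with 20.

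With the replicate block within genotype and day, p2 below p0-p1 was 2 on day 5 and 19 on day 11, and WT NFIAp gave 258; with the replicate block across all libraries it was 1 on day 5. For the comparisons within 1 day whose numbers paired libraries, the block moved no other count by over 1.5 times. Of 1078 alternatives for single named intervals, 1034 were called or not called as before, 44 lost the call and 0 reversed a called difference. The differences of Interval_9427 and Interval_146660 between NFIAp pMN and p2, which were not called, did change sign in some alternatives. They reached 0.08 and 0.20 with 1 library left out. Causes were not tested.

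At the members' median level of 59.4 reads over all libraries, counting error limits single values to 13.0%, and groups of 2 or 3 libraries limit the rest. Counting error is larger where the members were lower, as in MUT day 5 p0-p1 and p2, with medians of 16.9 and 26.5.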
